A study of Danio rerio with 6 samples.

Results

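The 9 genes described here are proliferation genes of the zebrafish retina, chosen by their Ensembl identifiers out of 25190 genes in a table of read counts and 32264 genes in a table of FPKM (fragment abundance scaled to transcript length and sequencing depth). They are 5 subunits of the MCM replicative helicase (*mcm2*, *mcm3*, *mcm4*, *mcm5* and *mcm6*), the DNA topoisomerase *top2a*, the mitotic cyclin *ccnb1*, its kinase *cdk1*, and *mki67*, which encodes the chromosome-coating protein Ki-67. The rule that picked them used no measured value, but it was written with earlier results of these data known. All 9 were measured in every sample by both tables, with a lowest count of 18, and all 9 passed the filters on low values.

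The samples were 3 pools of homozygous mutant retinas (*pde6c* w59/w59, samples PR1, PR2 and PR3) and 3 pools of wild-type retinas (WT, samples WR1, WR2 and WR3), all dissected at 5 days post-fertilization (dpf) from dark-adapted larvae. Each pool held 3 retinas from 3 larvae. *pde6c* encodes the catalytic subunit of the cone phosphodiesterase, and the mutant retina loses its cones. The mutants came from heterozygous parents and were picked by a visual behaviour test before genotyping, whereas the WT larvae came from WT siblings of those parents, so that the mutation and the parentage cannot be told apart. RNA from each pool was amplified before sequencing.

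A dividing cell first loads MCM helicase rings onto its replication origins, then fires them to copy its DNA, and later uses topoisomerase II, condensin and the cyclin B and Cdk1 kinase to compact and separate the chromosomes. Ki-67 is present in cycling cells and absent from resting ones. In larval zebrafish most of the central retina has left the cell cycle, and the eye grows from stem and progenitor cells in the ciliary marginal zone at its rim, while Müller glia in the inner nuclear layer divide slowly to supply rod precursors. Müller glia can also re-enter the cycle after photoreceptors are lost. A whole-retina library averages over all these cells, so that fewer cycling cells and less RNA per cycling cell cannot be told apart.

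The labels were first checked on the mutated gene. The FPKM of *pde6c* itself were 60.1, 140 and 84.8 in the *pde6c* samples, against 445, 655 and 520 in the WT samples, a difference of -2.56 (SE 0.31) on the log2(FPKM + 1) scale (limma, adjusted *P*-value 0.00912). It had no counts in any sample, since its whole span lies within that of *cep55* and fragments that touched more than 1 gene were left out of the counts. The cone marker list fell in the counts, with 7 of 10 tested genes lower and 1 higher in *pde6c* (*opn1lw1*) at an adjusted *P*-value under 0.1 in edgeR. Over all tested genes 2.29% were lower and 1.40% higher at that threshold. The summed level of the cone list was 6901 to 9574 CPM (read counts set to 1 library size with TMM factors) in *pde6c*, against 17233 to 19532 CPM in WT. Total counts were 18757605 to 22510222 per sample and TMM factors 0.948 to 1.06, with WR2 the lowest in both. Lens markers, which would show carry-over from dissection, summed to 3.61 to 6.32 CPM over 13 genes in *pde6c* and 6.67 to 8.33 CPM in WT. One of these genes, a copy of *cryba2* (ENSDARG00000030349), was at 0 in all 6 samples.

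None of the 9 proliferation genes passed an adjusted *P*-value of 0.1 between *pde6c* and WT in edgeR's quasi-likelihood test, in which 3.69% of the 17242 tested genes did (2.29% lower and 1.40% higher in *pde6c*). At an unadjusted *P*-value under 0.05 there were 2 of the 9, *mki67* and *top2a*, both lower in *pde6c*, where 6.26% of all tested genes were lower and 5.72% higher at that level. DESeq2 (5.88% of all genes called) also called 0 of the 9, and so did limma on the FPKM, in which 1.30% of all tested genes passed. The fitted log2 fold change (*pde6c* over WT) was below 0 for 8 of the 9, against 49.7% of all tested genes, and the median of the 9 was -0.48, against 0.00 for all tested genes, whose quartiles were -0.28 and 0.30. With DESeq2 size factors or upper quartile factors in place of TMM it stayed below 0 for 8 of the 9. The 9 genes are not independent measurements, since they are read in the same 6 libraries. Because *P*-values here rest on the spread among 3 pools of each genotype, a gene that missed the threshold was not shown to be the same in both.

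*mcm2* (ENSDARG00000102798), at chr22:5603970-5624920 on the minus strand of GRCz10, encodes one of the MCM ring's subunits. It was measured at 9.57, 7.49 and 13.5 CPM in PR1, PR2 and PR3, against 15.9, 12.7 and 19.5 CPM in WR1, WR2 and WR3. The groups met only where PR3 lay above WR2. The log2 fold change was -0.65 (SE 0.34), with a 95% interval of -1.38 to 0.07 (edgeR, adjusted *P*-value 0.497), the lowest among the 5 subunits. In FPKM the groups did not overlap, with 5.44, 4.72 and 7.04 FPKM in *pde6c* and 10.03, 7.85 and 13.5 FPKM in WT. Over all genes tested in FPKM, 8.47% lay lower in *pde6c* without overlap.

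*mcm4* (ENSDARG00000040041), at chr24:35648541-35673592 on the minus strand, encodes a subunit that forms part of the catalytic core of the helicase. Its level was 14.9, 12.6 and 6.27 CPM in PR1, PR2 and PR3, against 15.1, 14.1 and 20.3 CPM in WR1, WR2 and WR3. PR3 was low, WR3 was high, and the other samples lay close together, with PR1 between WR2 and WR1. The log2 fold change of -0.55 (SE 0.36) had a 95% interval of -1.31 to 0.21 (edgeR, adjusted *P*-value 0.619), and without PR3 it was -0.25. FPKM did not overlap between the genotypes, at 6.45, 5.15 and 3.07 FPKM in *pde6c*, against 6.86, 8.13 and 8.77 FPKM in WT. The same held, in that direction, for 8.47% of all genes tested in FPKM.

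*mcm5* (ENSDARG00000019507), at chr3:25868606-25880569 on the plus strand, encodes the subunit that closes the ring together with Mcm2. It had 14.0, 11.5 and 9.91 CPM in PR1, PR2 and PR3, against 22.7, 12.7 and 10.9 CPM in WR1, WR2 and WR3. WR1 was well above the other samples, which overlapped, and the log2 fold change of -0.38 (SE 0.35, 95% interval -1.13 to 0.36) became 0.02 without that sample.

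*mcm6* (ENSDARG00000057683), at chr6:12733207-12755502 on the plus strand, was the most abundant of the MCM members per transcript length in both genotypes. Counts gave 24.5, 17.5 and 21.4 CPM in PR1, PR2 and PR3, against 30.9, 15.0 and 27.8 CPM in WR1, WR2 and WR3, so that the *pde6c* samples all lay within the WT range. The log2 fold change was -0.22 (SE 0.30), with a 95% interval of -0.86 to 0.42. A part of its span, 3508 bases or 15.7%, is shared with *si:ch73-71c20.5*. A further gene that carries the symbol *mcm6* (ENSDARG00000033231) had 4, 1 and 26 counts in *pde6c* and 1, 0 and 12 counts in WT, too few to be tested.

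*mcm3* (ENSDARG00000024204), at chr20:34867318-34880864 on the plus strand, was the member with the fewest counts. It had 51, 39 and 44 counts in PR1, PR2 and PR3, against 94, 44 and 18 counts in WR1, WR2 and WR3, or 2.19, 1.83 and 2.14 CPM against 4.15, 2.48 and 0.867 CPM. WT held both the highest and the lowest sample. Of its 13547-base span, 74.5% is shared with *stmn4* on the opposite strand, and fragments in the shared stretch were not counted for either gene. The FPKM table, which does not leave such fragments out by that rule, listed *mcm3* at 6.66, 4.28 and 5.53 FPKM in *pde6c* and 7.14, 5.05 and 6.04 FPKM in WT, a narrower spread with overlapping groups. The log2 fold change in counts was -0.29 with a wide 95% interval of -1.75 to 1.18, and the log2(FPKM + 1) difference was -0.13 (SE 0.33).

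The remaining subunit of the MCM ring, *mcm7* (ENSDARG00000101180), could be read only in FPKM. Its span lies wholly within that of *tmem107*, and it had 0 counts in all 6 samples. FPKM were 9.56, 12.9 and 10.5 in PR1, PR2 and PR3, against 16.5, 7.81 and 11.4 in WR1, WR2 and WR3. The WT samples spanned the *pde6c* ones, and the difference was -0.06 (SE 0.32, limma, adjusted *P*-value 0.974).

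**Figure D1:**
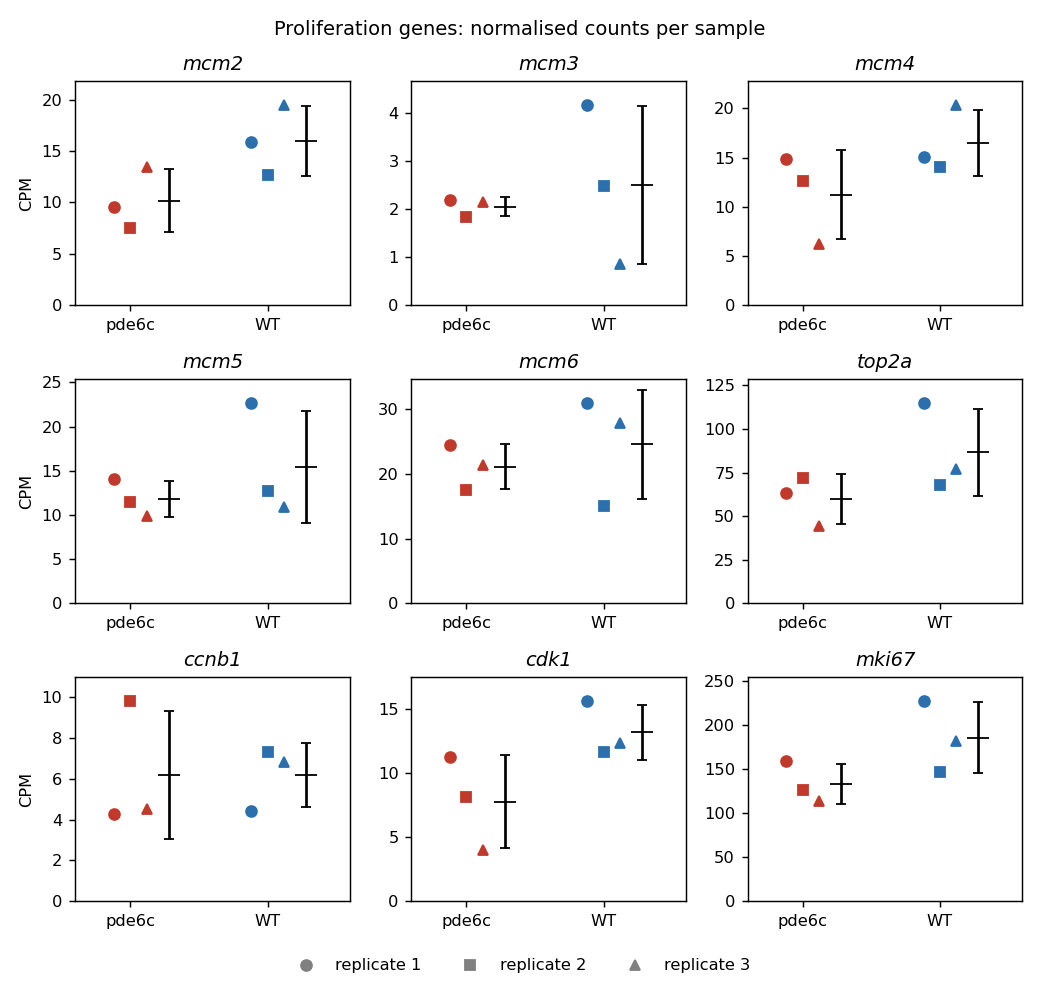
Normalised counts of the 9 proliferation genes in each sample. The vertical axis is CPM on a linear scale from 0 and differs between panels. Red points are the 3 *pde6c* samples, blue points the 3 WT samples, symbols mark the replicate number, and the bar beside each group is its mean with the SD. Only *cdk1* had all *pde6c* samples below all WT samples, as did 8.75% of all tested genes.

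Among the genes of chromosome structure and mitosis, *top2a* (ENSDARG00000024488), at chr12:10668469-10701717 on the plus strand, encodes the topoisomerase that untangles sister chromatids. Its level was 63.6, 71.7 and 44.2 CPM in PR1, PR2 and PR3, against 115, 67.8 and 77.1 CPM in WR1, WR2 and WR3. PR2 lay above WR2, and WR1 was the highest sample by a wide margin. The fold of *pde6c* over WT was 0.691, with a 95% interval of 0.493 to 0.968 that is not adjusted for the number of genes (edgeR, unadjusted *P*-value 0.0335, adjusted *P*-value 0.351). Without WR1 the log2 fold change was -0.27, in place of -0.53. *top2b*, the topoisomerase of resting cells and neurons, stood at 387 to 446 CPM in *pde6c* and 418 to 496 CPM in WT (log2 fold change -0.09, SE 0.14). It is 1 of 5 listed paralogs of members not tied to cycling cells. The log2 fold changes of these 5 ran from -0.43 to 0.50, with a median of -0.01. In edgeR 0 of the 5 were called, and 1 was higher under an unadjusted *P*-value of 0.05, against 5.72% of all tested genes.

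*cdk1* (ENSDARG00000087554), at chr17:20903855-20909625 on the plus strand, encodes the kinase that drives entry into mitosis. It was measured at 11.2, 8.10 and 3.98 CPM in PR1, PR2 and PR3, against 15.6, 11.6 and 12.3 CPM in WR1, WR2 and WR3. It was the only member whose CPM did not overlap, a pattern that 8.75% of all tested genes showed in the same direction, and PR1 and WR2 lay close together. The log2 fold change of -0.76 (SE 0.40) was the lowest of the 9, with a 95% interval of -1.61 to 0.09 (edgeR, adjusted *P*-value 0.499), and it was -0.44 without PR3. In FPKM the genotypes overlapped, since WR2 was listed at 11.99 FPKM, below PR1 at 18.8 and PR2 at 16.4 FPKM.

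*ccnb1* (ENSDARG00000051923), at chr5:54088191-54091953 on the minus strand, encodes cyclin B1, the partner of Cdk1. It was the member least like the others across samples, with 4.25, 9.79 and 4.52 CPM in PR1, PR2 and PR3, against 4.42, 7.32 and 6.79 CPM in WR1, WR2 and WR3. PR2 was the highest of the 6 samples, and WR1, the highest for 6 of the members, was among the lowest. The log2 fold change of 0.00 (SE 0.47) had a 95% interval of -0.99 to 1.00. It was -0.49 without PR2 and -0.27 on the log2(FPKM + 1) scale.

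*mki67* (ENSDARG00000091150), at chr12:10328774-10343439 on the minus strand, had the highest counts of the 9 and the narrowest interval. It was read at 3697, 2701 and 2347 counts in PR1, PR2 and PR3, against 5136, 2607 and 3781 counts in WR1, WR2 and WR3. Scaled to library size these were 159, 126 and 114 CPM in *pde6c*, against 227, 147 and 182 CPM in WT. PR1 lay above WR2 and the other samples were separated by genotype. The fold was 0.718, with a 95% interval of 0.547 to 0.942 (edgeR, unadjusted *P*-value 0.0200, adjusted *P*-value 0.268). The FPKM did not overlap, at 38.6, 32.5 and 31.7 FPKM in *pde6c* and 52.4, 38.9 and 49.5 FPKM in WT, with PR1 and WR2 nearly equal. Of all genes tested in FPKM, 8.47% lay lower in *pde6c* without overlap. Without WR1 the log2 fold change was -0.30, in place of -0.48.

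**Figure D2:**
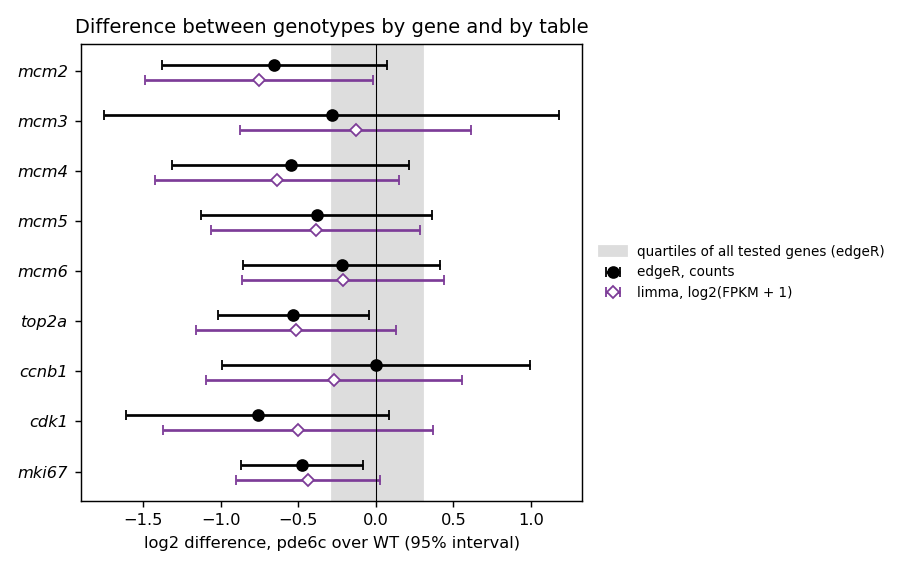
Difference between the genotypes for each of the 9 genes. The horizontal axis is the log2 difference of *pde6c* over WT with its 95% interval, from counts (edgeR, filled circles) and from log2(FPKM + 1) (limma, open diamonds), and the grey band spans the quartiles of all genes tested with edgeR. In counts the intervals of *top2a* and *mki67* lie below 0 before adjustment for the number of genes tested, and in FPKM only that of *mcm2* does.

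Per transcript length, the order of the 9 was nearly the same in both genotypes. In *pde6c* the mean ran from 34.3 FPKM for *mki67* through 21.8 for *top2a*, 14.7 for *cdk1*, 13.4 for *mcm6*, 8.69 for *mcm5*, 6.87 for *ccnb1*, 5.73 for *mcm2* and 5.49 for *mcm3* to 4.89 FPKM for *mcm4*. In WT it ran from 46.9 FPKM for *mki67* through 31.4 for *top2a*, 21.6 for *cdk1*, 16.1 for *mcm6*, 11.9 for *mcm5*, 10.5 for *mcm2*, 8.79 for *ccnb1* and 7.92 for *mcm4* to 6.08 FPKM for *mcm3*. Neighbours in the WT order all overlapped in their range over the 3 samples, and in *pde6c* all overlapped except *mki67* with *top2a* and *mcm6* with *mcm5*. On the log2(FPKM + 1) scale the difference between genotypes was below 0 for all 9, against 51.4% of the 15782 genes tested, with a median of -0.44. At an unadjusted *P*-value under 0.05 there was 1 of the 9, *mcm2* (-0.75, SE 0.32, limma, adjusted *P*-value 0.485), where 1578 of those 15782 genes passed. The FPKM come from the same libraries and are not separate evidence.

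The members were then compared across samples by setting each gene's log2 CPM to its own mean over the 6 samples. Averaged over the 9 genes, this relative level was -0.03, -0.14 and -0.45 in PR1, PR2 and PR3, against 0.48, 0.02 and 0.12 in WR1, WR2 and WR3. The groups did not overlap, but PR1 and WR2 were closer to each other than to the other samples of their own genotype. Taken singly, 8.75% of all tested genes lay lower in *pde6c* without overlap in CPM, and no such share was computed for averages of genes. WR1 was the highest sample for 6 of the 9 genes, and PR3 the lowest for 5. The 4 genes of chromosome structure and mitosis averaged -0.09, 0.05 and -0.69 in PR1, PR2 and PR3, and the 5 MCM genes 0.02, -0.30 and -0.27. The mitosis genes were thus well below the MCM genes in PR3 only, and above them in PR2. Leaving out WR1 moved the median log2 fold change of the 9 to -0.27, with *mcm3* at 0.31 and *mcm5* at 0.02, and leaving out PR3 moved it to -0.31. Without any of the other samples it lay between -0.62 and -0.48.

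**Figure D3:**
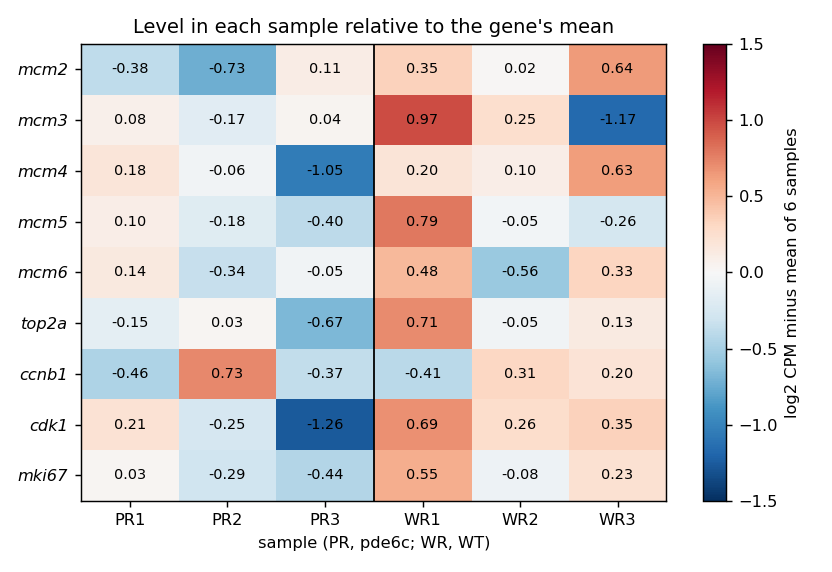
Level of each gene in each sample relative to its own mean. Colours and printed values are log2 CPM minus the mean of the 6 samples, with *pde6c* samples left of the line and WT samples right of it. WR1 is the highest column for 6 genes and PR3 the lowest for 5, and *ccnb1* is below its mean in WR1.

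The other genes of the cell cycle were taken from lists grouped by step. In none of the 6 lists (origin licensing, DNA synthesis, G1/S control, CDK inhibitors, G2/M and retinal progenitors) did a gene pass an adjusted *P*-value of 0.1 in edgeR or in limma on the FPKM. DESeq2 called 3 G2/M genes (*ncapd3*, *nusap1* and *hmmr*), 1 G1/S gene (*e2f2*) and 1 progenitor gene (*rx2*), all lower in *pde6c*, and none in the other 3 lists. Over all genes with an adjusted *P*-value in DESeq2, 5.88% were called, a share near those of 3 of 46 G2/M, 1 of 18 G1/S and 1 of 20 progenitor genes. These lists were written with results of these data already known, and each is described by its count and median only. Beside the counts below 0 given for each list, 49.7% of all tested genes were below 0 in edgeR and 51.4% in limma. Beside each list's limma count under an unadjusted *P*-value of 0.05, 1578 of all 15782 genes tested passed, in either direction. The genes of a list were read in the same 6 libraries and are not independent measurements.

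The G2/M list, which holds kinases, kinetochore, spindle and condensin genes, had 35 of 45 tested genes with a log2 fold change below 0 and a median of -0.32. Below an unadjusted *P*-value of 0.05 in edgeR there were 6, all lower in *pde6c*, where 6.26% of all tested genes were lower and 5.72% higher. The lowest log2 fold change was that of *ncapd3*, a condensin II subunit, with 5.24, 4.36 and 3.45 CPM in *pde6c*, against 9.59, 10.1 and 13.1 CPM in WT (-1.33, SE 0.40, edgeR, adjusted *P*-value 0.108). The highest was that of *cks1b*, a CDK-binding subunit, at 1.56 (SE 1.05), which was near 0 CPM in PR2 and no higher than 3.84 CPM in any sample. The FPKM difference of *cks1b* ran the other way at -0.58 (SE 0.72). In FPKM 41 of 50 genes were below 0, with a median of -0.41 and 5 genes lower under an unadjusted *P*-value of 0.05 (limma). At that level limma gave 1578 of all 15782 genes tested, in either direction.

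The DNA synthesis list, with polymerases, clamp loaders and nucleotide enzymes, had 20 of 26 tested genes below 0 and a median of -0.16. Under an unadjusted *P*-value of 0.05 in edgeR there were 3, all lower in *pde6c*, where 6.26% of all tested genes were lower and 5.72% higher. *pcna*, the sliding clamp of the replication fork, was at 114, 89.3 and 113 CPM in *pde6c*, against 121, 106 and 79.9 CPM in WT. These groups overlapped (log2 fold change 0.04, SE 0.19). The ends of the list were *prim1*, the catalytic primase subunit (-1.05, SE 0.59), and *rfc3*, a clamp loader subunit (0.73, SE 0.54). In FPKM 20 of 27 genes were below 0, with a median of -0.26 and 2 genes lower under an unadjusted *P*-value of 0.05 (limma).

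Origin licensing and helicase activation, the step the MCM ring itself belongs to, had 7 of 14 tested genes below 0 and a median of 0.01. A further 4 of its 18 genes had 0 counts in all samples (*mcm7*, *orc4*, *cdt1* and *dbf4*). Its lowest member was *mcm10*, a helicase activator, with 2.02, 0.328 and 0.535 CPM in *pde6c*, against 4.15, 2.195 and 3.61 CPM in WT (-1.78, SE 0.77, edgeR, adjusted *P*-value 0.360). These did not overlap, as for 8.75% of all tested genes in that direction. The FPKM of *mcm10* overlapped, at 0.562, 0.289 and 0.190 in *pde6c* and 0.689, 0.902 and 0.185 in WT, too low to be tested. The highest of the list was *orc2*, an origin recognition subunit (1.40, SE 0.73), for which the FPKM difference ran the other way at -1.23. At an unadjusted *P*-value under 0.05 there were 2 genes in edgeR, 1 in each direction, where 6.26% of all tested genes were lower and 5.72% higher. In FPKM 12 of 17 genes were below 0, with a median of -0.09, and limma gave 0 genes under that *P*-value.

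The G1/S list had 13 of 17 tested genes below 0 and a median of -0.29. *e2f2*, a transcription factor of S-phase genes, was lowest, at 9.06, 8.15 and 8.89 CPM in *pde6c*, against 19.5, 18.9 and 13.1 CPM in WT (-0.98, SE 0.32, edgeR, adjusted *P*-value 0.156). A copy of the D-type cyclin *ccnd2* (ENSDARG00000070408) was highest, at 6.05, 4.07 and 10.4 CPM in *pde6c*, against 3.93, 1.74 and 3.42 CPM in WT (1.17, SE 0.53, adjusted *P*-value 0.379). Neither *e2f2* nor this *ccnd2* copy overlapped between genotypes in CPM, and they moved in opposite directions. Over all tested genes 8.75% lay lower and 8.15% higher in *pde6c* without overlap. The other *ccnd2* copy (ENSDARG00000051748) had 72.3, 86.3 and 111 CPM in *pde6c*, against 63.8, 67.1 and 62.9 CPM in WT. Its span is 265135 bases, against 17582 bases for the first copy. CPM are not scaled to length, so they do not rank the copies by abundance. In mean FPKM the copy with the longer span was the lower in *pde6c* and the higher in WT. Its CPM did not overlap between genotypes either (0.48, SE 0.19, edgeR, adjusted *P*-value 0.290), but its FPKM difference ran the other way at -0.71 (SE 0.46). Under an unadjusted *P*-value of 0.05 there were 3 genes of this list in edgeR, 1 of them lower in *pde6c*, and 2 in limma, 1 in each direction. In edgeR 6.26% of all tested genes were lower and 5.72% higher at that level. In FPKM 10 of 17 genes were below 0, with a median of -0.19.

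The CDK inhibitor list had 3 of 7 tested genes below 0 and a median of 0.17. Under an unadjusted *P*-value of 0.05 in edgeR there were 0, where 6.26% of all tested genes were lower and 5.72% higher. One of the 7, *cdkn2aip*, encodes a protein that binds CDKN2A and is no CDK inhibitor itself, and without it 2 of 6 genes were below 0 and the median was 0.21. The inhibitors, which hold cells out of the cycle, ran from a copy of *cdkn1b* (ENSDARG00000029018) at -0.73 (SE 0.41) to *cdkn1ca* at 1.25 (SE 0.66). The CPM of *cdkn1ca* overlapped between genotypes, with PR3 at 1.99 CPM below WR1 at 2.39 CPM. In FPKM *cdkn1ca* did not overlap, at 8.80, 8.31 and 5.23 FPKM in *pde6c*, against 3.19, 1.56 and 3.17 FPKM in WT (1.22, SE 0.38, limma, unadjusted *P*-value 0.0108, adjusted *P*-value 0.274). It was the 1 gene of this list under an unadjusted *P*-value of 0.05 in limma. The share of all genes that lay higher in *pde6c* without overlap in FPKM was not computed.

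The retinal progenitor list had 12 of 19 tested genes below 0 and a median of -0.16. Under an unadjusted *P*-value of 0.05 in edgeR, where 6.26% of all tested genes were lower and 5.72% higher, there was 1 gene. That gene was *rx2*, which marks stem cells of the ciliary marginal zone in medaka and is also expressed in photoreceptors, at 25.2, 39.8 and 20.1 CPM in *pde6c*, against 55.0, 36.3 and 71.9 CPM in WT. PR2 lay above WR2, and the log2 fold change was -0.94 (SE 0.28, edgeR, adjusted *P*-value 0.112). The highest of the list was a copy of *hes6* (ENSDARG00000007097) at 0.47 (SE 0.64). In FPKM 14 of 19 genes were below 0, with a median of -0.14, and 2 were lower under an unadjusted *P*-value of 0.05, *rx2* and a copy of *six6*. This *six6* copy, a homeobox gene of the early eye (ENSDARG00000025187), had 0 counts in all samples and a span wholly covered by other genes. It was listed at 1.82, 1.65 and 1.15 FPKM in *pde6c*, against 3.99, 9.45 and 8.68 FPKM in WT, without overlap (-1.66, SE 0.41, limma, unadjusted *P*-value 0.00296, adjusted *P*-value 0.147). Such a lower position without overlap was found for 8.47% of all genes tested in FPKM.

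**Figure D4:**
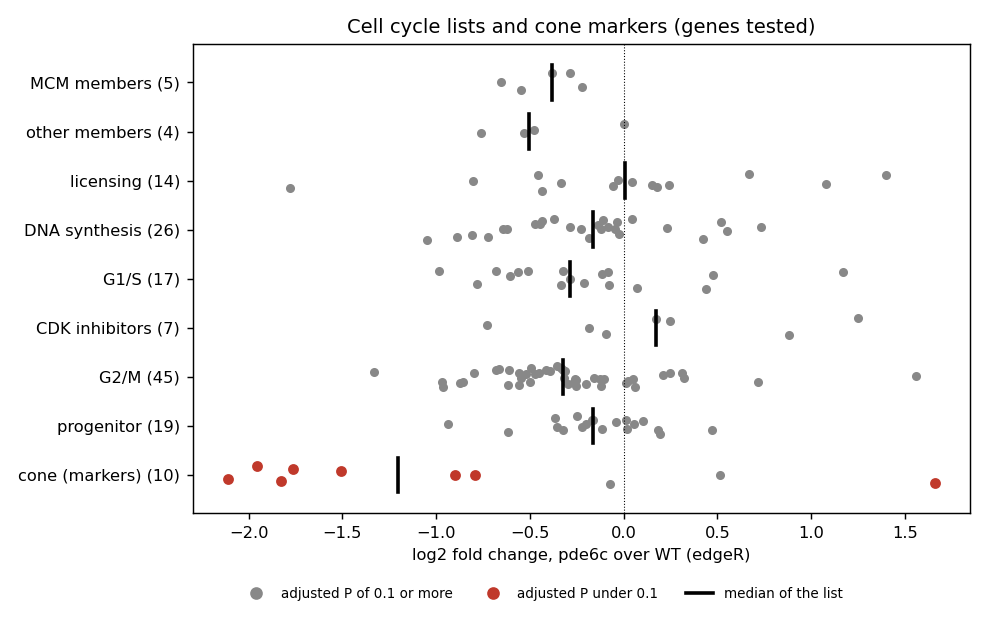
Cell cycle lists beside the cone markers. Each point is a gene, the horizontal axis is its edgeR log2 fold change of *pde6c* over WT, the number of genes tested follows each list's name, vertical bars are list medians, and red points passed an adjusted *P*-value of 0.1. The 9 proliferation genes are the upper pair of rows, and only cone markers are red.

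Markers of cells that can divide, or whose loss changes the make-up of the sample, were read beside these genes. The Müller glia list summed to 982 to 1264 CPM in *pde6c* and 1077 to 1398 CPM in WT, with 1 of 9 genes called, a copy of the glutamate transporter *slc1a2* (ENSDARG00000052138) that was lower in *pde6c*. Over all tested genes 2.29% were called lower and 1.40% higher in edgeR. DESeq2 called 2 of the 9 Müller glia genes, and 5.88% of all genes. The median log2 fold change of the Müller glia list was 0.06, and 4 of its 9 genes were under an unadjusted *P*-value of 0.05 in edgeR, 2 in each direction. At that level 6.26% of all tested genes were lower and 5.72% higher. Both higher Müller glia genes were copies of the glutamine synthetase gene *glul*, of which ENSDARG00000100003 had a log2 fold change of 0.65 (edgeR, adjusted *P*-value 0.110). Microglia markers summed to 103 to 121 CPM in *pde6c* and 66.3 to 106 CPM in WT, with 0 of 12 tested genes called in edgeR and 1 under an unadjusted *P*-value of 0.05. Rod markers summed to 1623 to 2313 CPM in *pde6c*, against 2498 to 3332 CPM in WT, with 3 of 9 called lower in edgeR, against 2.29% of all tested genes. On the FPKM limma called 0 of the 10 rod markers tested, where 1.30% of all tested genes passed. Pigment epithelium markers summed to 41.0 to 45.7 CPM in *pde6c* and 40.1 to 49.7 CPM in WT, and vessel and blood markers to 93.9 to 121 CPM in *pde6c* and 112 to 148 CPM in WT, with 0 called in either list. The part of these cells in the levels of the proliferation genes was not tested.

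The genes whose pattern over the 6 samples was most like the averaged relative level of the 9 were *rabgef1*, *syt5a*, *snrpa*, *si:ch1073-429i10.3* and ENSDARG00000102288. They were taken by Pearson's r out of 10478 tested genes whose log2 CPM averaged 3 or more, and each had an r of 0.98 and a Spearman's rho of at least 0.94. As the best of so many over 6 samples of 2 genotypes, these values are a description. *rabgef1* had a log2 fold change of -0.27 (SE 0.24) in counts, but its FPKM difference ran the other way at 0.30 (SE 0.32). *snrpa*, a spliceosomal protein gene, had 11.9, 11.1 and 8.94 CPM in *pde6c*, against 15.4, 13.1 and 13.2 CPM in WT. *syt5a*, a synaptotagmin gene, had 205, 147 and 110 CPM in *pde6c*, against 346, 219 and 212 CPM in WT. In both, WR1 was the highest sample and PR3 the lowest, as in the average of the 9.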

How the data were processed

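Per the labels and the study's methods, reads were aligned with STAR 2.5.3a to the Ensembl release 89 zebrafish genome (GRCz10). The authors counted fragments per gene with featureCounts 1.5.2, and the deposited counts are raw. The deposited counts are per whole gene span without strand, and fragments on several genes or places were left out: 3931 genes had 0 counts in all samples, of which 954 had an FPKM of at least 1 in at least 3 samples, and 922 of these lay wholly under other genes. The span length of each gene was read from the deposited count table as a score and only reported. The authors made the FPKM with Cufflinks 2.2.1. Deviations from the gene mean agreed best between count and FPKM columns of the same name in all 6 samples (r 0.57 to 0.60).

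Counts were tested with edgeR 4.0.16 (filterByExpr with a minimum count of 10, TMM, quasi-likelihood *F*-test, Benjamini-Hochberg over 17242 genes, adjusted *P*-value under 0.1, as in the study). The SE is the log2 fold change over the root of *F*, and the 95% intervals use it. CPM are counts scaled to the TMM-adjusted library total. FPKM were tested with limma 3.58.1 with a trend on log2(FPKM + 1), which understates changes of low genes, for genes with an FPKM of at least 1 in at least 3 samples. DESeq2 1.42.0 was an alternative, beside other scalings, filters, pseudocounts, a threshold of 0.05, the replicate number as a block and leaving out each sample. The scripts were tested on simulated data.

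Symbols came from a table of Ensembl names (22595 of 25190 genes). The genes and lists were chosen with earlier results of these data known. Named were the 9 genes, *pde6c*, the up to 3 called genes per direction and the highest and lowest log2 fold change of each list, and the 5 genes of most like pattern. *mcm7*, *pcna*, *top2b*, *six6*, *glul* and the copies of members were added after their values were seen. No replicates were duplicates (chi-square per degree of freedom 33.0 to 46.7). Sequences and promoter motifs were not analysed here.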

Additional observations from a re-analysis of the deposited data

How the results depend on the processing

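The 9 genes stayed uncalled under every alternative except 1. The sources used here do not say that a replicate number marks a shared animal, clutch or day, and same-numbered samples deviated together only weakly (r 0.04 to 0.09). With the replicate block, *mki67* passed (-0.47, edgeR, adjusted *P*-value 0.0622), which made 1 member called, 1 DNA synthesis gene (*dnmt1*), 1 G2/M gene (*nusap1*) and 984 genes in all (393 higher in *pde6c*), in place of 636 (241 higher, 395 lower). DESeq2 called 1081 genes (500 higher), among them 1 G1/S, 3 G2/M and 1 progenitor gene. Limma called 205 genes on log2(FPKM + 1) (80 higher, 125 lower), 181 with a pseudocount of 0.1 (67 higher, 114 lower) and 64 without a filter (22 higher, 42 lower). *rx2* was the 1 progenitor gene called without a filter on low counts and with at least 10 counts in every sample. Leaving out 1 sample at a time gave 414 (without PR3) to 537 genes called (164 to 234 higher, 246 to 311 lower), 0 to 1 G2/M genes (*cdc25b* without WR2), 0 to 2 progenitor genes (*rx2* and *lin28a* without PR2, *rx2* without WR2), and a median log2 fold change of the 9 between -0.62 and -0.27. Without PR2 the 2 progenitor genes moved in opposite directions, with *lin28a* higher in *pde6c* (log2 fold change 4.02) and *rx2* lower (-1.26). *ccnb1*, at 0.00, turned below 0 with the replicate block (-0.072), in limma (-0.27, -0.30 with a pseudocount of 0.1, -0.27 without a filter) and without some samples (-0.49 to 0.22). *mcm3* ran from -0.68 to 0.31 and *mcm5* from -0.57 to 0.016, both above 0 only without WR1. Without any 1 sample the lowest adjusted *P*-value of a member was 0.149 (*mki67* without WR2). The cause of these changes was not tested. *mcm3* had the fewest counts of the 9, 18 to 94 per sample, with 74.5% of its span left out by the counting rule.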
